A study of Mus musculus with 12 samples.

Results

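The hearts described here carried both of the study's injuries, MI and CIH, and are set against sham hearts. MI is read here as myocardial infarction and CIH as chronic intermittent hypoxia, the oxygen pattern of sleep breathing disorders, since the study's title speaks of remodelling after MI under such disorders. The MI+CIH libraries number 3 and the sham libraries 3, so the comparison uses 6 of the 12 libraries of the series, and it covers the 26781 genes of the table. All groups are hearts of C57BL/6J mice that were flash frozen, and their RNA was extracted with Trizol. The MI, CIH and sham groups, also of 3 libraries each, enter the same fit and stand beside the MI+CIH values where named. The labels give no age, sex, time after surgery, length of the hypoxia, time of day, batch or allele, and they do not say which part of the heart was taken or whether each library is a separate mouse. The p-values below therefore measure the spread between libraries, which may in part be technical.

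After a coronary artery is blocked, heart muscle cells die and the tissue is replaced by a scar. Monocytes and macrophages clear the debris, fibroblasts turn into matrix-secreting cells, and the surviving muscle changes its contractile, electrical and energy genes. Intermittent hypoxia lowers and restores the oxygen supply in cycles, which acts on oxygen-sensing enzymes and adds sympathetic drive.

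Expression was given as FPKM, fragments scaled for gene length and library size. A gene was tested if 3 or more of the 12 libraries reached 0.5 FPKM, which 15503 genes met. Differences are log2 fold changes of FPKM + 0.5 from limma, MI+CIH over sham, with their standard error (SE), and p-values were adjusted over all tested genes with the Benjamini-Hochberg method. A gene is said to have risen or fallen where its adjusted p was under 0.05. The pseudocount makes the fold change of a low gene smaller than its ratio of FPKM.

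The libraries were deep and alike in size, at 26.06 to 28.36 M reads in MI+CIH and 28.22 to 30.34 M reads in sham, as recovered from the FPKM steps. Heart muscle markers were high in every library, and the 10 markers summed to 14871 to 27143 FPKM in MI+CIH and 27676 to 31078 FPKM in sham. On the first principal component, which held 35.3% of the variance, the MI+CIH libraries lay at 46.1, 31.6 and 71.8, against -28.8, -12.3 and -20.4 for sham. Markers of other tissues differed between libraries. Airway and motile cilia markers, of which 18 were listed, summed to 406, 3712 and 1647 FPKM in MI+CIH 1, 2 and 3, against 31.0, 622 and 27.6 FPKM in sham 1, 2 and 3, and no MI or CIH library exceeded 72 FPKM. Their defining gene Scgb1a1, the secretoglobin of airway club cells, was at 290, 2977 and 990 FPKM in MI+CIH and at 1.99, 485 and 1.32 FPKM in sham. The cartilage genes Col2a1 and Acan were named after their values were seen. In MI+CIH 1, 2 and 3 Col2a1 was at 7.33, 1.96 and 14.0 FPKM and Acan at 3.89, 1.99 and 5.98 FPKM. In sham they reached at most 0.26 and 0.555 FPKM. Among MI+CIH libraries both were lowest in MI+CIH 2, and among sham libraries both were highest in sham 2. The part of such tissue in the results below was not tested. MI+CIH 2 and sham 2 held the highest airway sum of their groups. Leaving out both did not remove the difference, since 14 of 17 tested airway markers rose in that fit (median 3.58, against 3.38 with all libraries). Counts beside many of the gene groups below are given for fits without MI+CIH 2 and sham 2 and without MI+CIH 3 and sham 2. Each such count is the number of members called in that fit, and it does not say that they are the same genes.

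In MI+CIH hearts 1749 genes rose (11.3% of those tested) and 854 fell (5.51%), together 16.8%. List counts below are to be read beside these shares. Changes of 2-fold or more were reached by 766 of the genes that rose and 215 of those that fell. The median change over all tested genes was 0.12, and scaling each library by median of ratios, which sets that median to 0, gave 1310 genes that rose and 1476 that fell, so that 47% of the calls were higher, against 67.2% as reported here. The 3 MI+CIH libraries all lay above the 3 sham libraries in 23.8% of tested genes and all below them in 12% of tested genes. Leaving out 1 library moved the counts of genes that rose and fell to 606 and 370 without sham 1, to 934 and 432 without sham 2, to 1138 and 504 without sham 3, to 1602 and 554 without MI+CIH 1, to 1840 and 1195 without MI+CIH 2, and to 804 and 457 without MI+CIH 3. Without both MI+CIH 2 and sham 2, 1279 genes rose and 883 fell, and without both MI+CIH 3 and sham 2, 390 rose and 173 fell. In the fit of the 6 libraries alone 805 rose and 368 fell. With the summed airway level as a covariate 31 genes rose and 13 fell, while 2601 of the 2603 calls kept their sign and the median SE was 1.53 times as large. Counts of list members in each of these fits are to be read beside that fit's totals over all tested genes. In bulk tissue fewer cells of a type and less RNA per cell cannot be told apart, so a lower level below may be either. FPKM is also scaled to library size, so each level depends on the rest of the library's RNA as well.

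**Figure D1:**
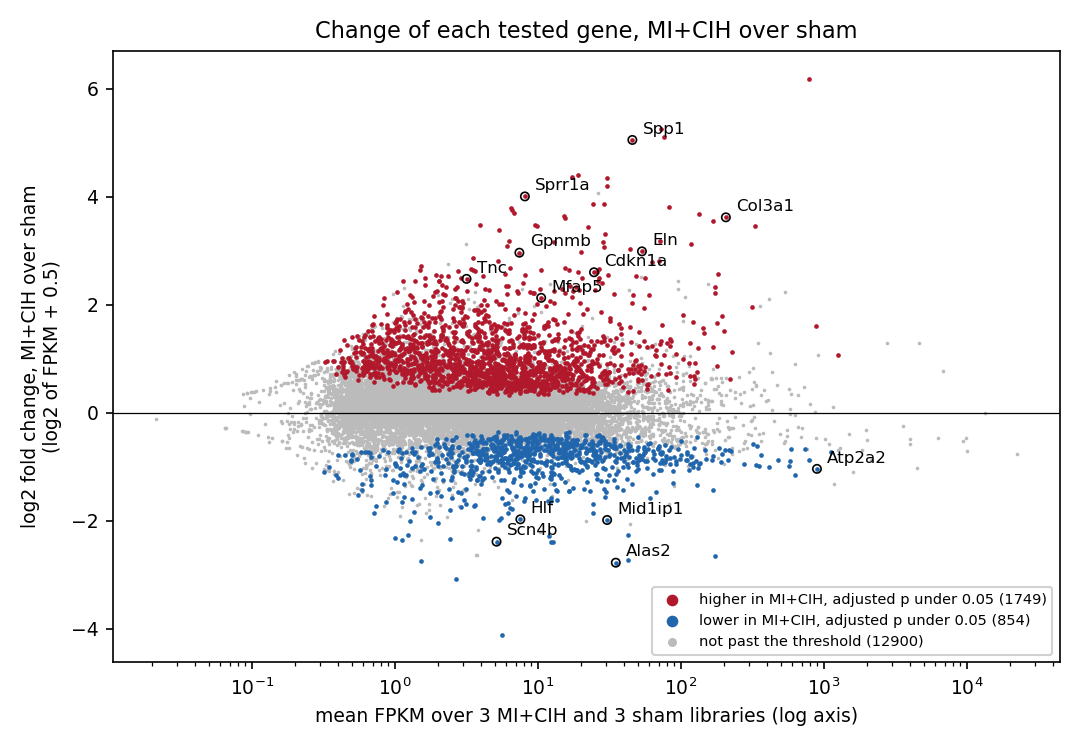
Each point is 1 of the 15503 tested genes, with its mean FPKM over the 6 libraries on a log axis and its log2 fold change of MI+CIH over sham on the vertical axis. The genes that rose (1749, red) reach larger changes than those that fell (854, blue), and the circled genes are described in the text.

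Scar matrix genes rose almost throughout their list. Of 49 tested collagens and other scar matrix genes 44 rose, none fell, and the median log2 change was 1.83, against 0.12 for all tested genes. Their summed level was 4638, 2895 and 4834 FPKM in MI+CIH, against 905, 860 and 1211 FPKM in sham. The sums did not overlap, and MI+CIH 2 was the lowest of the MI+CIH libraries. Col3a1, a fibrillar collagen of young scars, was at 341, 247 and 561 FPKM in MI+CIH, against 25.4, 24.7 and 38.5 FPKM in sham (log2 fold change 3.62 ± 0.39 SE, adjusted p = 0.00147). Eln, elastin, was at 149, 61.8 and 77.3 FPKM in MI+CIH, against 10.7, 10.1 and 11.6 FPKM in sham (2.99 ± 0.29, adjusted p = 0.00147). All 3 MI+CIH libraries stood several-fold above every sham library for these genes, and MI+CIH 1 was highest for Eln while MI+CIH 3 was highest for Col3a1.

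Other parts of the matrix moved with them. Tnc, the injury matrix protein tenascin C, was at 5.63, 4.18 and 7.39 FPKM in MI+CIH, against 0.349, 0.638 and 0.848 FPKM in sham (2.48, adjusted p = 0.00147). Mfap5, a microfibril protein that accompanies elastin, was at 19.7, 16.8 and 16 FPKM in MI+CIH, against 3.33, 3.27 and 4.25 FPKM in sham (2.13, adjusted p = 0.00147). The fibril-associated collagen Col14a1 was at 51.2, 35.5 and 48.4 FPKM in MI+CIH, against 8.04, 7.47 and 7.91 FPKM in sham (2.44, adjusted p = 0.00147), and Col16a1 changed by 2.29. Like Col3a1 and Eln, these genes were named by a rule that required groups that do not overlap. Among genes named after their values were seen, the collagen chain Col1a1 (log2 change 3.55), the crosslinking enzyme Lox (3.60), fibronectin Fn1 (3.12) and Col1a2 (2.82) also rose. The members that missed the threshold, listed for completeness, were Dcn, Pcolce, Col15a1, Fmod and Ltbp1. Between 37 and 43 of the 49 genes rose when 1 library was left out, 40 without MI+CIH 2 and sham 2 and 30 without MI+CIH 3 and sham 2. With the airway covariate 16 rose, and the median was 2.22.

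Genes of activated fibroblasts followed, with 12 of 24 tested members risen, none fallen and a median of 1.02 (9 risen without MI+CIH 2 and sham 2, 5 without MI+CIH 3 and sham 2). Postn, periostin, which marks fibroblasts of the healing infarct, was at 87.9, 41.2 and 33.2 FPKM in MI+CIH, against 7.46, 6.95 and 9.91 FPKM in sham (2.55 ± 0.42, adjusted p = 0.00501). Cilp, a matrix protein of cardiac fibroblasts, was at 71.5, 48.9 and 37.1 FPKM in MI+CIH, against 4.89, 4.24 and 8.22 FPKM in sham (3.08, adjusted p = 0.0046). Comp, a pentameric matrix protein of tendon, cartilage and scars, was at 175, 56.8 and 160 FPKM in MI+CIH, against 12.9, 12.8 and 11.7 FPKM in sham (3.18, adjusted p = 0.00957). MI+CIH 1 was the highest library for all 3 genes. Acta2, the smooth muscle actin of myofibroblasts, was higher in every MI+CIH library, at 122, 187 and 162 FPKM, than in sham, at 61.9, 65.6 and 100 FPKM, but missed the threshold (1.05, adjusted p = 0.0614), and it passed in the fit of the 6 libraries alone.

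Matrix proteases and their inhibitors rose in 16 of 26 tested members and fell in 1 (median 0.99). The membrane collagenase Mmp14 was at 35.0, 24.7 and 84.7 FPKM in MI+CIH, against 7.73, 6.17 and 8.93 FPKM in sham (2.40, adjusted p = 0.00452). The gelatinase Mmp2 changed by 2.04 and the procollagen protease Adamts2 by 2.07. The protease inhibitor Timp1, named after its values were seen, changed by 3.87. The 1 gene that fell, Adamts7, a protease that cuts Comp, was at 2.42, 3.17 and 2.5 FPKM in MI+CIH, against 7.27, 6.53 and 6.56 FPKM in sham (-1.19, adjusted p = 0.00147). It had the smallest p of all genes that fell. In the list 10 rose without sham 1, 13 without MI+CIH 2 and sham 2 and 9 without MI+CIH 3 and sham 2.

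Some of the signals that act on fibroblasts rose. Of 27 tested TGF-beta and activin genes 10 rose and none fell (median 0.40). Follistatin Fst, which traps activins, was at 4.61, 1.99 and 5.25 FPKM in MI+CIH, against 0.246, 0.394 and 0.635 FPKM in sham (2.20, adjusted p = 0.0046). Its relative Fstl1, a secreted factor of the injured heart, was at 99.7, 68.7 and 93.8 FPKM in MI+CIH, against 19.9, 17.9 and 30.6 FPKM in sham (1.94, adjusted p = 0.00434), and the receptor Tgfbr1 changed by 1.08. The groups did not overlap for either gene. Wnt modulators rose in 7 of 18 tested members, among them the secreted frizzled-related proteins Sfrp2, at 59.7, 25.9 and 23.6 FPKM in MI+CIH, against 3.73, 4.90 and 2.88 FPKM in sham (2.98, adjusted p = 0.00794), and Sfrp1 (2.30). Of 13 tested genes of the IGF system 6 rose, and the ligand Igf1 was nearly equal among MI+CIH libraries, at 6.78, 6.51 and 7.03 FPKM, against 2.58, 3.45 and 3.37 FPKM in sham (1.01, adjusted p = 0.00778). Of 22 tested integrin and focal adhesion genes 8 rose and 2 fell, with the collagen-binding integrin chain Itga11 at 1.66. Without MI+CIH 2 and sham 2 the counts of risen members were 7, 4, 5 and 6 in the TGF-beta, Wnt, IGF and integrin lists, without MI+CIH 3 and sham 2 they were 2, 3, 0 and 0, and without sham 1 they were 7, 5, 2 and 4. In the Wnt list 3 rose without sham 3, in the IGF list 2 without sham 2, 3 without sham 3 and 2 without MI+CIH 3, and in the integrin list 5 without sham 2 and 5 without MI+CIH 3.

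**Figure D2:**
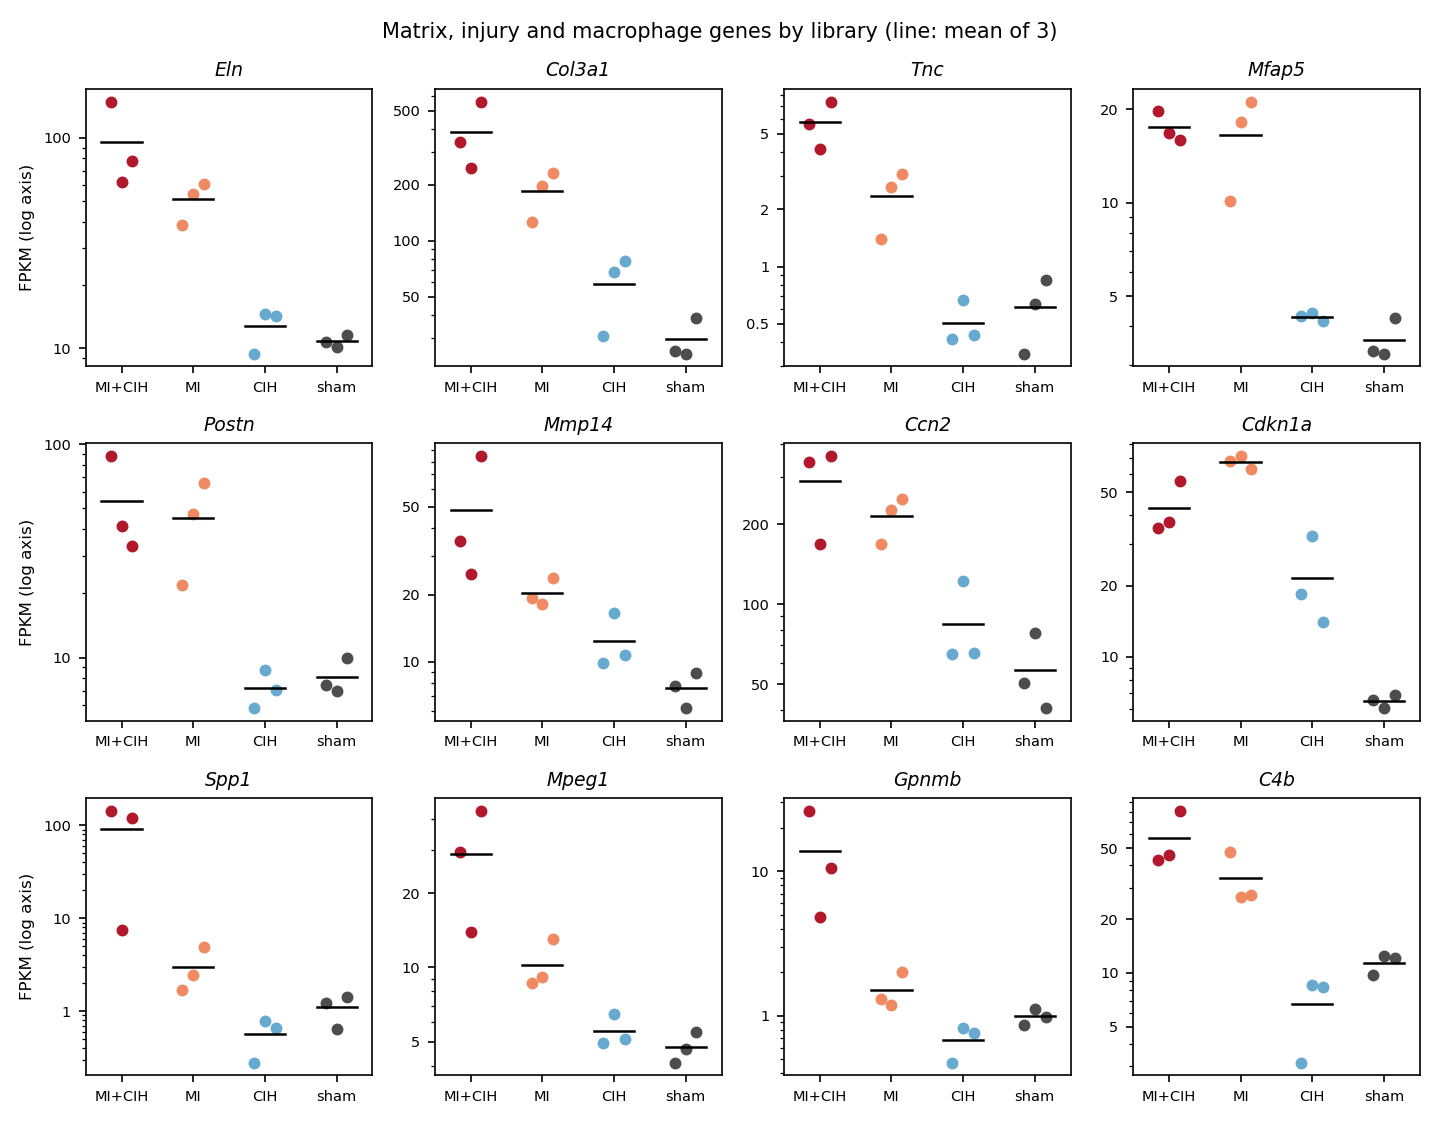
Each panel shows 1 gene in FPKM on a log axis, with 1 point per library and a line at the mean of 3, for MI+CIH, MI, CIH and sham from left to right. In each panel the 3 MI+CIH libraries lie above the 3 sham libraries, and MI+CIH 2 is the lowest of the MI+CIH libraries for Spp1 (7.53 FPKM) and Gpnmb (4.85 FPKM).

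Macrophage genes rose as a group. Of 29 tested macrophage and monocyte markers 22 rose, none fell, and the median was 1.22. Their summed level was 1033, 808 and 1642 FPKM in MI+CIH, against 341, 312 and 467 FPKM in sham. Spp1, osteopontin, a matrix protein that infarct macrophages secrete, was at 144, 7.53 and 120 FPKM in MI+CIH, against 1.23, 0.645 and 1.42 FPKM in sham (5.05 ± 0.89, adjusted p = 0.00652). Ctss, the lysosomal protease cathepsin S, was at 94.3, 55.9 and 136 FPKM in MI+CIH, against 12.0, 13.4 and 23.0 FPKM in sham (2.49, adjusted p = 0.00532). Mpeg1, the pore-forming protein perforin-2 of phagocytes, was at 29.4, 13.9 and 43.1 FPKM in MI+CIH, against 4.12, 4.67 and 5.49 FPKM in sham (2.35, adjusted p = 0.00298). MI+CIH 2 was the lowest MI+CIH library for these 3 genes, and it still lay above every sham library. Gpnmb, a glycoprotein of lipid-laden macrophages, was at 26.2, 4.85 and 10.5 FPKM in MI+CIH, against 0.868, 1.12 and 0.987 FPKM in sham (2.97, adjusted p = 0.00386). Marco, a scavenger receptor of resident macrophages including those of the lung alveoli, was named after its values were seen: it was at 15.6, 5.90 and 16.1 FPKM in MI+CIH, against 0.088, 0.957 and 0.24 FPKM in sham (3.80, adjusted p = 0.0021). Lung alveolar markers summed to 34.7, 317 and 34.2 FPKM in MI+CIH, against 64.8, 79 and 53.1 FPKM in sham. The part of lung tissue in the Marco level was not tested. In the macrophage list 9 rose without sham 1, 11 without sham 2 and 10 without MI+CIH 3. The count was 16 without MI+CIH 2 and sham 2, 4 without MI+CIH 3 and sham 2 and 13 in the fit of the 6 libraries. With the airway covariate none rose, and the median was 1.34. Over all tested genes 390 rose without MI+CIH 3 and sham 2, where the list median was 0.79. With the covariate 31 did.

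Complement genes rose in 13 of 17 tested members with none fallen (median 1.13). C4b, the component that tags surfaces in the classical pathway, was at 43.1, 45.7 and 81.0 FPKM in MI+CIH, against 9.75, 12.4 and 12.1 FPKM in sham (2.21, adjusted p = 0.00511). The protease C1s1, which cleaves it, was at 30.7, 33.8 and 40.3 FPKM in MI+CIH, against 12.8, 15.9 and 14.1 FPKM in sham (1.26, adjusted p = 0.00171). Cd55, which protects cells from complement, rose as well (1.54). Counts were 9 without MI+CIH 2 and sham 2, 5 without MI+CIH 3 and sham 2, 7 in the fit of the 6 libraries, 5 without sham 1, 6 without sham 2, 8 without sham 3 and 7 without MI+CIH 3.

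Some cytokine receptors rose. Of 34 tested chemokines, interleukins and receptors 9 rose and none fell, among them the interleukin receptors Il1r1 (1.39, adjusted p = 0.0095) and Il6ra, at 4.75, 4.32 and 8.55 FPKM in MI+CIH, against 1.78, 2.24 and 1.59 FPKM in sham (1.38, adjusted p = 0.00493). Of 37 tested interferon-induced genes none rose and 3 fell (median -0.01), a share close to the 5.51% of all tested genes that fell, so that nothing is read from it about the list. Gbp5, a guanylate-binding protein of infected cells, was at 2.26, 1.69 and 1.57 FPKM in MI+CIH, against 5.01, 3.80 and 5.44 FPKM in sham (-1.16, adjusted p = 0.00488). Gbp4 (-1.16) and the antiviral enzyme Rsad2 (-1.17) fell too, though Gbp4 lost its call without sham 1, Rsad2 without sham 1 or sham 2, and both, like Il1r1, in the fit of the 6 libraries. In the cytokine list 3 rose without sham 1, 6 without sham 2, 6 without MI+CIH 3, 13 without MI+CIH 2, 4 without MI+CIH 3 and sham 2 and 2 in the fit of the 6 libraries.

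Neutrophil genes were uneven among the MI+CIH libraries. The neutrophil markers summed to 24.2, 88.3 and 351 FPKM in MI+CIH, against 6.07, 15.7 and 19 FPKM in sham, and 2 of 8 tested members rose. Mmp9, a neutrophil gelatinase, was at 0.791, 1.03 and 83.5 FPKM in MI+CIH, against 0.23, 0.721 and 0.885 FPKM in sham, so that 1 library carried nearly all of it and the gene missed the threshold. S100a9, a calcium-binding protein that neutrophils hold in bulk, was at 8.38, 0.608 and 92.6 FPKM in MI+CIH, against 1.95, 2.78 and 8.97 FPKM in sham, and the groups overlapped. MI+CIH 3 thus stood apart in neutrophil genes. B cell and antibody genes rose in 4 of 14 tested members and T cell and killer cell genes in 2 of 10. With so few T cell genes nothing is read from their count, as 11.3% of all tested genes rose. Of neutrophil genes none rose without sham 1 or sham 3, 1 without sham 2 or MI+CIH 3 and none without MI+CIH 3 and sham 2. Of B cell genes 2 rose without sham 1, sham 3 or MI+CIH 1, 1 without MI+CIH 3 and 2 without MI+CIH 3 and sham 2. Of T cell genes 1 rose without sham 1, sham 2, MI+CIH 2 or MI+CIH 3. The immunoglobulin constant gene Iglc1 was at 3.72, 3.81 and 4.09 FPKM in MI+CIH, against 0, 0.624 and 0.581 FPKM in sham (2.37, adjusted p = 0.0077).

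**Figure D3:**
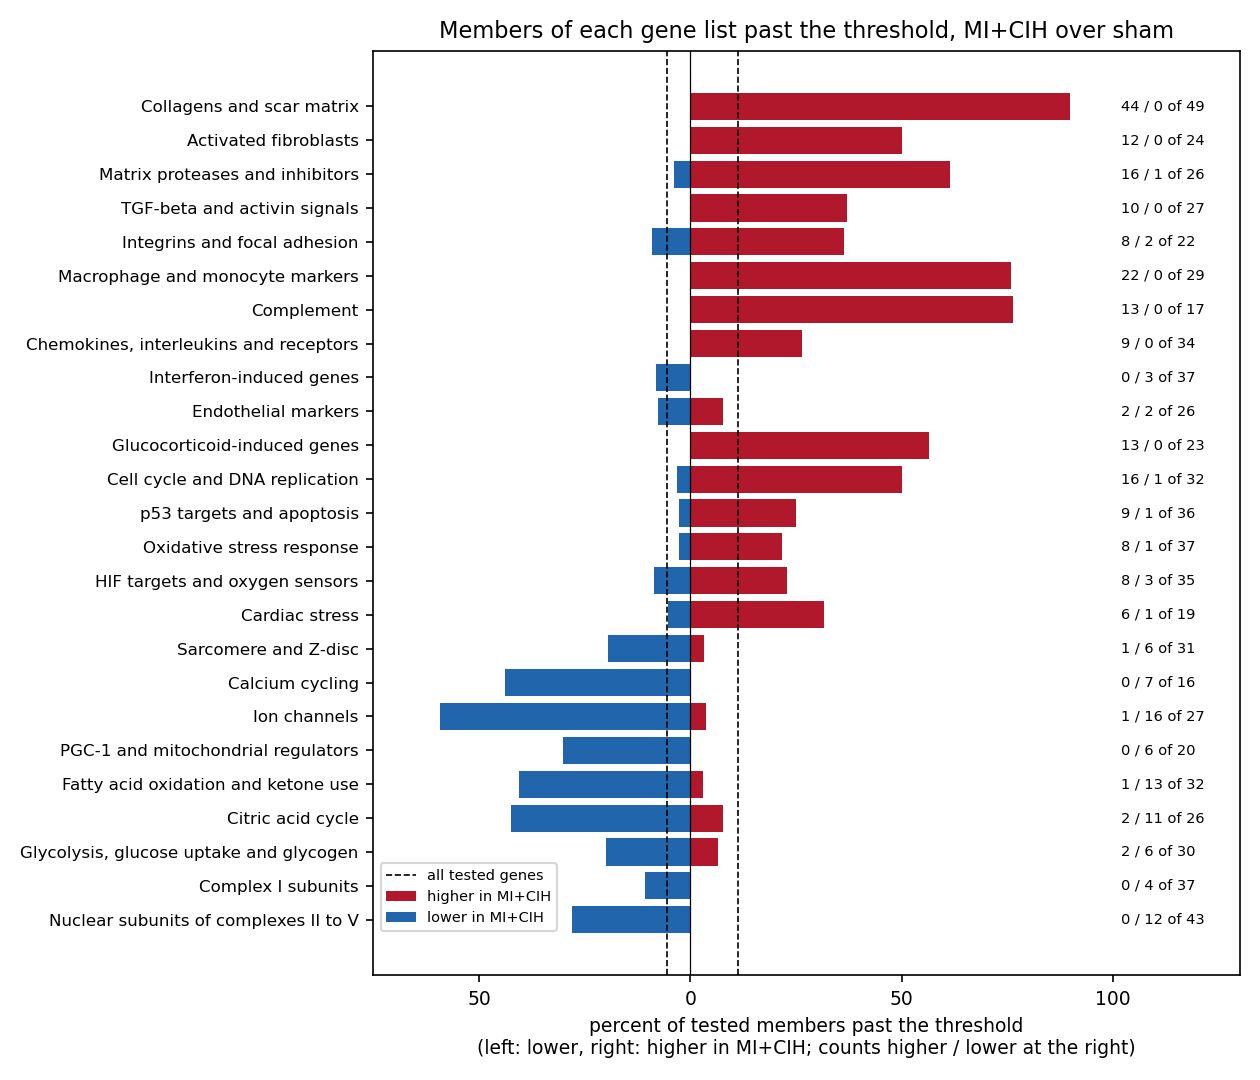
Bars give the percent of tested members of each list past the threshold, to the right for genes higher in MI+CIH and to the left for genes lower in MI+CIH, with the counts (higher / lower of tested) beside them. Dashed lines mark the same percent over all tested genes, 11.3% higher and 5.51% lower; scar matrix, macrophage and complement lists extend far to the right, and ion channel, calcium and fuel lists to the left.

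Stress genes of the injured heart muscle rose in part. Of 19 tested cardiac stress genes 6 rose and 1 fell (median 1.05). Sprr1a, a small protein induced by stress in heart muscle cells, was at 24.8, 7.74 and 14.8 FPKM in MI+CIH, against 0.462, 0.308 and 0.491 FPKM in sham (4.01 ± 0.63, adjusted p = 0.00483). Ccn2, connective tissue growth factor, was at 341, 168 and 361 FPKM in MI+CIH, against 50.5, 77.9 and 40.7 FPKM in sham (2.33, adjusted p = 0.0039). Neither gene overlapped between the groups. The natriuretic peptide Nppa was higher in each MI+CIH library, at 4004, 2995 and 4787 FPKM, than in sham, at 2038, 1666 and 1136 FPKM, but missed the threshold (1.3, adjusted p = 0.118). The fetal myosin Myh7, named after its values were seen, missed it too, with 355, 138 and 2346 FPKM in MI+CIH and 88.6, 197 and 62.5 FPKM in sham, where MI+CIH 3 stood far above the rest. In the list 7 rose without MI+CIH 2 and sham 2, and 2 without MI+CIH 3 and sham 2. Leaving out sham 1 gave 3 risen genes and leaving out sham 2 gave 4.

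Many genes of the electrical cycle fell. Of 27 tested ion channel genes 16 fell and 1 rose (Kcne1, log2 change 0.95, named after its values were seen), with a median of -0.79. Kcne1 lost its call without sham 2, without MI+CIH 1, without MI+CIH 2 and sham 2 and in the fit of the 6 libraries. Their summed level was 242, 292 and 201 FPKM in MI+CIH, against 412, 408 and 463 FPKM in sham. Scn4b, a beta subunit of the cardiac sodium channel, was at 1.39, 2.11 and 0.659 FPKM in MI+CIH, against 8.25, 10.1 and 8.30 FPKM in sham (-2.39 ± 0.26, adjusted p = 0.00147). Scn4b was named by a rule that required groups that do not overlap, and MI+CIH 3 was its lowest library. Kcnip2, the subunit that the fast transient outward potassium current needs, was at 6.29, 13.8 and 9.49 FPKM in MI+CIH, against 27.2, 24.4 and 25.0 FPKM in sham (-1.39, adjusted p = 0.00471). Kcnh2, which carries the rapid delayed rectifier current, was at 7.82, 9.24 and 6.73 FPKM in MI+CIH, against 19.1, 16.9 and 17.9 FPKM in sham (-1.14, adjusted p = 0.00413). Kcnd2, the pore that Kcnip2 assists, and the inward rectifier Kcnj2, both named after their values were seen, fell by 1.31 and by 1.02 on the log2 scale. Each of these 5 genes kept its call when any 1 library was left out. In the list 11 to 16 genes fell when 1 library was left out, 14 without MI+CIH 2 and sham 2, 7 without MI+CIH 3 and sham 2 and 18 under median-of-ratios scaling. With the airway covariate 1 of the 27 fell, Scn4b, and the median was -0.83.

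Calcium cycling genes fell in 7 of 16 tested members, and none rose (median -0.43). Atp2a2, the pump SERCA2 that refills the calcium store, was at 596, 756 and 432 FPKM in MI+CIH, against 1198.5, 1161 and 1216 FPKM in sham (-1.04 ± 0.21, adjusted p = 0.00957). Ryr2, the release channel of the store, was at 54.8, 60.9 and 41.1 FPKM in MI+CIH, against 88.5, 95.8 and 100 FPKM in sham (-0.87, adjusted p = 0.00969). Cacnb2, a subunit of the L-type calcium channel, was at 3.94, 3.63 and 1.92 FPKM in MI+CIH, against 7.79, 7.95 and 7.98 FPKM in sham (-1.25, adjusted p = 0.00794). MI+CIH 3 had the lowest level of all 3 genes. In the list 3 fell without sham 1, 4 without sham 2, 3 without sham 3, 4 without MI+CIH 1, 4 without MI+CIH 3, 6 without MI+CIH 2 and sham 2, none without MI+CIH 3 and sham 2 and 3 in the fit of the 6 libraries, in which Atp2a2 lost its call.

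Fewer calls were made in the sarcomere list. Of 31 tested sarcomere and Z-disc genes 6 fell and 1 rose (median -0.32). Of the 10 heart muscle markers 4 fell and none rose. Their median was -0.8, close to that of the ion channels (-0.79). Rbm20, the splicing factor of titin, was at 37.8, 35.5 and 30.1 FPKM in MI+CIH, against 63.8, 61.3 and 61.0 FPKM in sham (-0.84, adjusted p = 0.00416). Fhod3, an actin assembler of the sarcomere, was at 43.3, 47.4 and 35.8 FPKM in MI+CIH, against 65.0, 73.2 and 71.3 FPKM in sham (-0.73, adjusted p = 0.0115). Myh6, the adult motor myosin, was lower in each MI+CIH library, at 4385.5, 4071 and 1211 FPKM, than in sham, at 6601, 5968 and 4637 FPKM, but missed the threshold (-1.03, adjusted p = 0.116). MI+CIH 3 held the least heart muscle RNA, 14871 FPKM over the 10 markers, while MI+CIH 2, at 27143 FPKM, was close to the lowest sham library at 27676 FPKM. Without MI+CIH 2, 7 of the 10 markers fell, without any 1 of the other 5 libraries 1 did, without MI+CIH 2 and sham 2, 6 did, and without MI+CIH 3 and sham 2 none did. In the sarcomere list 2 fell without sham 1, 3 without sham 2, 3 without MI+CIH 3, 5 without MI+CIH 2 and sham 2 and 1 without MI+CIH 3 and sham 2.

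Of 22 tested genes of the renin-angiotensin and adrenergic list 5 rose and 5 fell. The beta-1 receptor Adrb1, the main target of noradrenaline in heart muscle, was at 5.64, 5.62 and 3.15 FPKM in MI+CIH, against 13.9, 13.8 and 10.9 FPKM in sham (-1.36, adjusted p = 0.00504). The angiotensin receptor Agtr1a was at 4.68, 4.11 and 5.77 FPKM in MI+CIH, against 12.2, 14.7 and 11.8 FPKM in sham (-1.33, adjusted p = 0.00209). Neither gene overlapped between the groups. The precursor of the hormone, Agt, was higher, at 7.24, 9.12 and 14.4 FPKM in MI+CIH, against 2.99, 2.32 and 3.07 FPKM in sham (1.66, adjusted p = 0.00529). The kinase Grk5, which desensitises the beta receptors, rose to 24.6, 22.3 and 28.4 FPKM in MI+CIH, against 12.5, 11.8 and 13.4 FPKM in sham (0.97, adjusted p = 0.00364). These 4 genes kept their calls when any 1 library was left out. Of the list 3 rose and 3 fell without sham 1, 4 and 2 without sham 2, 3 and 3 without sham 3, 4 and 3 without MI+CIH 1, with 4 and 3 without MI+CIH 3. Without MI+CIH 3 and sham 2, 2 rose and 2 fell.

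Genes of fuel use fell at several steps. Of 26 tested genes of the citric acid cycle and pyruvate entry 11 fell and 2 rose (median -0.61). Ogdh, an enzyme of the cycle that works on oxoglutarate, was at 221, 294 and 197 FPKM in MI+CIH, against 443, 461 and 498 FPKM in sham (-0.99 ± 0.17, adjusted p = 0.0056). Citrate synthase Cs was at 59.2, 92.8 and 59.1 FPKM in MI+CIH, against 120, 126 and 130 FPKM in sham (-0.86, adjusted p = 0.0105). The 2 genes that rose are kinases that switch off pyruvate dehydrogenase, Pdk3, at 1.84, 2.22 and 2.98 FPKM in MI+CIH, against 0.701, 0.913 and 0.914 FPKM in sham (1.07, adjusted p = 0.0053), and Pdk4 (2.22, adjusted p = 0.0165), named after its values were seen. Their relative Pdk2 fell to 73.4, 80.7 and 83.8 FPKM in MI+CIH, against 159, 166 and 136 FPKM in sham (-0.95, adjusted p = 0.00449). Pdk4 and Cs lost their calls in the fit of the 6 libraries.

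Fatty acid oxidation and ketone genes fell in 13 of 32 tested members and rose in 1 (median -0.54), and Hadh, a dehydrogenase of the spiral, was at 21.9, 47.9 and 26.8 FPKM in MI+CIH, against 63.1, 70.0 and 63.0 FPKM in sham (-1.09, adjusted p = 0.0125). Of 30 tested genes of glycolysis, glucose uptake and glycogen 6 fell and 2 rose. Slc2a4, the insulin-dependent glucose transporter GLUT4, was at 15.3, 27.7 and 16.3 FPKM in MI+CIH, against 41.0, 50.7 and 61.8 FPKM in sham (-1.38, adjusted p = 0.004595). MI+CIH 2 was the nearest to sham for both genes, and Hadh lost its call in the fit of the 6 libraries. Pfkfb3, which makes the activator of phosphofructokinase, went the other way, at 11.6, 15.4 and 17.3 FPKM in MI+CIH, against 4.34, 8.24 and 4.98 FPKM in sham (1.3, adjusted p = 0.00488). In lipid storage Dgat2, the last enzyme of triglyceride synthesis, was at 21.7, 55.4 and 21.1 FPKM in MI+CIH, against 87.5, 95.9 and 83.4 FPKM in sham (-1.58, adjusted p = 0.00794). The lipase inhibitor Angptl4 was at 20.4, 26.0 and 23.3 FPKM in MI+CIH, against 2.28, 4.94 and 0.732 FPKM in sham (3.16, adjusted p = 0.00515).

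Among regulators of these enzymes 6 of 20 tested genes of the PGC-1 list fell and none rose (median -0.29). Perm1, a muscle partner of PGC-1, was at 28.4, 33.6 and 17.3 FPKM in MI+CIH, against 59.3, 60.1 and 74.2 FPKM in sham (-1.32, adjusted p = 0.00488). Ppara, the fatty acid receptor that switches on their oxidation, was at 4.03, 5.73 and 4.36 FPKM in MI+CIH, against 9.19, 8.27 and 11.2 FPKM in sham (-0.95, adjusted p = 0.0076). In the respiratory chain 4 of 37 tested complex I subunits and 12 of 43 nuclear subunits of complexes II to V fell (medians -0.51 and -0.53). The complex I sum was 2380, 3991 and 2469 FPKM in MI+CIH, against 4455, 3717 and 4097 FPKM in sham, so that MI+CIH 2 lay within the sham range and the other 2 below it. Without MI+CIH 2, 22 complex I subunits and 25 of the others fell, and without MI+CIH 2 and sham 2, 18 and 25 did, while 11 and 16 fell under median-of-ratios scaling. Without MI+CIH 3 and sham 2 none fell in either list, and in the fit of the 6 libraries 0 and 2 did. Of the PGC-1 list 3 fell without MI+CIH 3 and 2 without MI+CIH 3 and sham 2. Without sham 1 or MI+CIH 3 no subunit of either list fell, without sham 2 it was 2 and 3, without sham 3 it was 0 and 2, and without MI+CIH 1 it was 0 and 2.

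The counts of the fuel lists also moved when MI+CIH 2 was left out. Without it 22 citric acid cycle, 18 fatty acid and 10 glycolysis genes fell, and without both MI+CIH 2 and sham 2, 20, 16 and 8 did. Without both MI+CIH 3 and sham 2, 2, 0 and 1 fell, and in the fit of the 6 libraries 2, 1 and 2. The counts were 5, 2 and 3 without sham 1, 5, 2 and 4 without sham 2, 6, 5 and 4 without sham 3, 7, 4 and 4 without MI+CIH 1, and 4, 3 and 3 without MI+CIH 3. Under median-of-ratios scaling 19, 18 and 9 fell, and with the airway covariate none did, with medians of -0.73, -0.73 and -0.46.

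**Figure D4:**
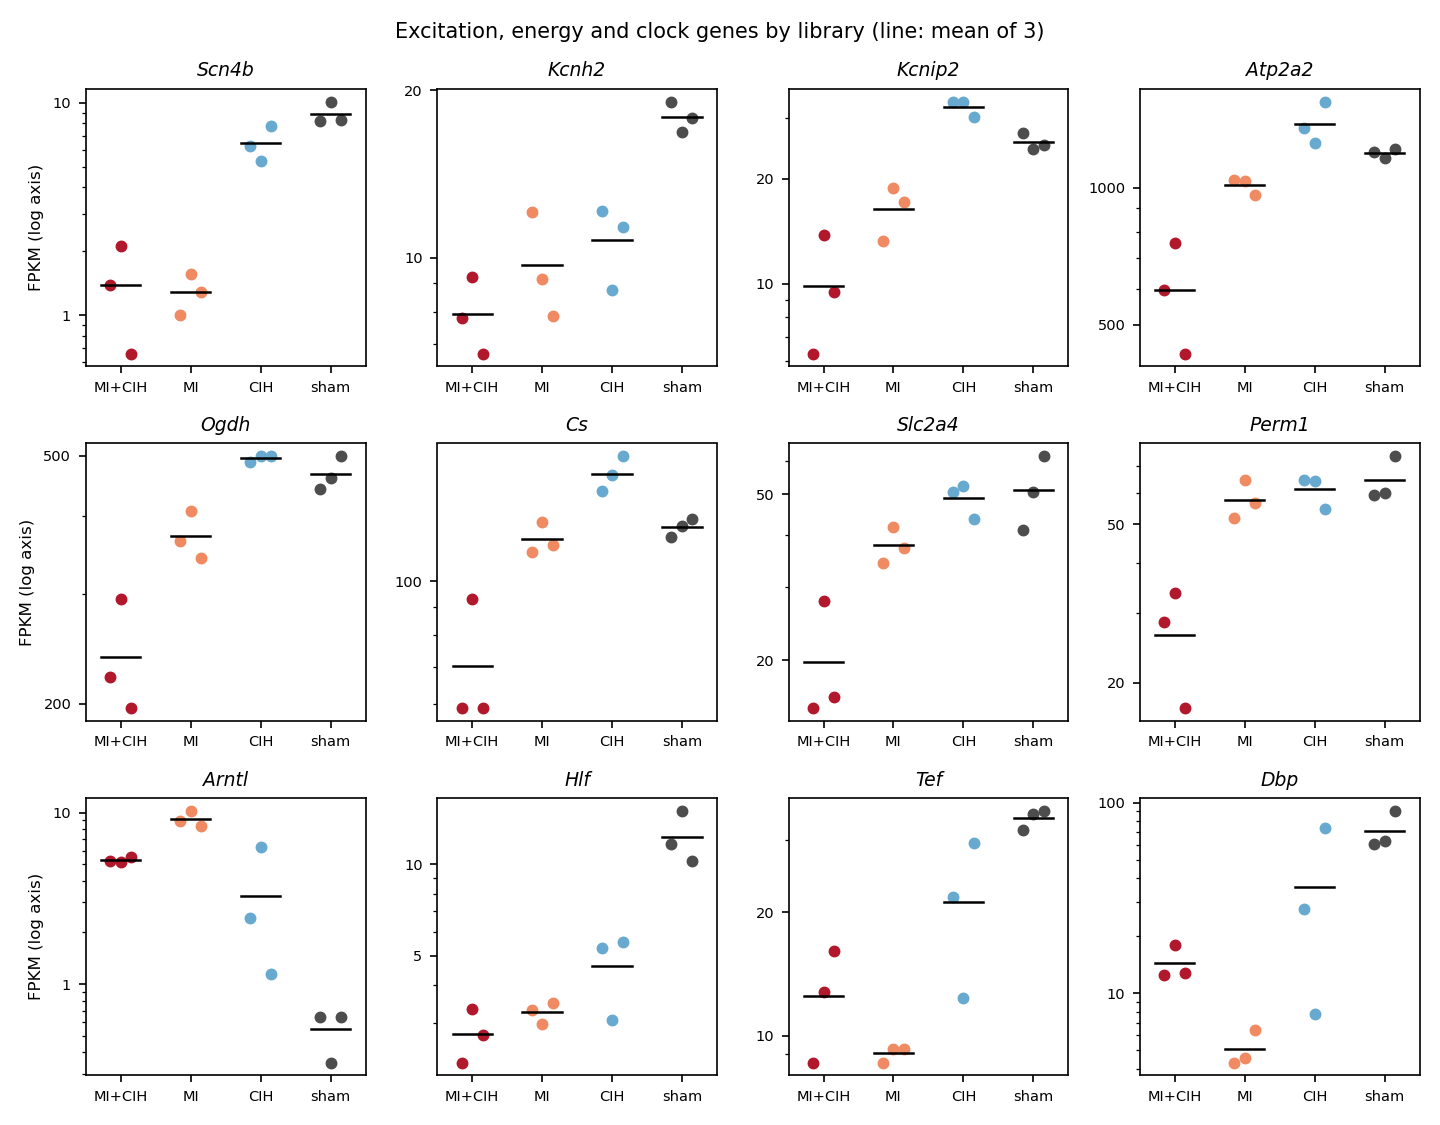
Each panel shows 1 gene in FPKM on a log axis, with 1 point per library and a line at the mean of 3, for MI+CIH, MI, CIH and sham from left to right. The excitation and energy genes of the upper 2 lines of panels lie lower in each MI+CIH library than in any sham library, and in the bottom line Arntl lies higher while Hlf, Tef and Dbp lie lower.

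Oxygen-regulated genes did not move together. Of 35 tested HIF targets and oxygen sensors 8 rose and 3 fell (median 0.28), and under median-of-ratios scaling 5 rose and 7 fell. Egln1, the prolyl hydroxylase that marks HIF for destruction, was at 37.7, 40.8 and 29.7 FPKM in MI+CIH, against 62.7, 68.6 and 67.5 FPKM in sham (-0.88, adjusted p = 0.00471). Stc1, a glycoprotein that HIF induces in several tissues, was at 4.17, 3.25 and 3.46 FPKM in MI+CIH, against 1.48, 1.47 and 1.24 FPKM in sham (1.12, adjusted p = 0.00747). Without 1 library at a time 4 to 12 of the list rose, with 4 without sham 1, 5 without sham 2, 4 without sham 3, 5 without MI+CIH 3, 12 without MI+CIH 2, 4 without MI+CIH 3 and sham 2 and 4 in the fit of the 6 libraries.

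Some genes of reactive oxygen rose. Of 37 tested oxidative stress genes 8 rose and 1 fell (median 0.14). Nox4, an NADPH oxidase that makes hydrogen peroxide, was at 3.51, 1.98 and 5.33 FPKM in MI+CIH, against 0.412, 0.389 and 0.51 FPKM in sham (2.05, adjusted p = 0.0046). Ncf1, a subunit of the phagocyte oxidase, was at 8.23, 7.49 and 12.8 FPKM in MI+CIH, against 2.52, 2.24 and 3.11 FPKM in sham (1.65, adjusted p = 0.00255). Neither overlapped with sham. Among iron genes Hp, the haptoglobin that binds free haemoglobin, was at 104, 99.9 and 256 FPKM in MI+CIH, against 6.64, 21.5 and 5.56 FPKM in sham (3.82, adjusted p = 0.00526). In the oxidative stress list 2 rose without sham 1, 3 without sham 2, 5 without sham 3, 4 without MI+CIH 3, 4 without MI+CIH 3 and sham 2 and 3 in the fit of the 6 libraries, while 8 rose and 5 fell without MI+CIH 2 and sham 2.

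Protein folding and amino acid stress genes rose in part. In the endoplasmic reticulum list 9 of 26 tested members rose and none fell (median 0.51). Pdia4, a disulfide isomerase, was at 35.2, 40.7 and 41.1 FPKM in MI+CIH, against 18.4, 16.5 and 19.9 FPKM in sham (1.07, adjusted p = 0.00303). Of 19 tested genes of the CHOP and ATF4 response 6 rose and 1 fell. Aldh18a1, which makes a precursor of proline, was at 6.03, 5.14 and 5.57 FPKM in MI+CIH, against 2.06, 2.36 and 3.08 FPKM in sham (1.03, adjusted p = 0.00381). Ddit3, which encodes CHOP itself, was lower, at 8.58, 10.02 and 7.94 FPKM in MI+CIH, against 13.6, 13.8 and 13.1 FPKM in sham (-0.59, adjusted p = 0.0121). Of 24 heat shock genes 3 fell and 1 rose (1 fell without sham 1, sham 2 or MI+CIH 3), and the small chaperone Hspb8 was at 70.5, 109 and 74.2 FPKM in MI+CIH, against 146, 140 and 193 FPKM in sham (-0.93, adjusted p = 0.0124). In the folding list 2 rose without sham 1, 3 without sham 2, 4 without MI+CIH 3, 3 without MI+CIH 2 and sham 2 and 2 without MI+CIH 3 and sham 2. In the ATF4 list 2 rose without sham 1, 7 without MI+CIH 2 and sham 2, 4 without MI+CIH 3 and sham 2 and 2 in the fit of the 6 libraries, and Hspb8 lost its call in that fit.

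Cdkn1a, the cell cycle inhibitor p21, was at 35.1, 37.5 and 56.0 FPKM in MI+CIH, against 6.52, 6.06 and 6.91 FPKM in sham (2.60 ± 0.26, adjusted p = 0.00147). It is a member of the p53 list, in which 9 of 36 tested genes rose and 1 fell, and of the glucocorticoid list, in which 13 of 23 rose and none fell (median 1.10). Fkbp5, a chaperone that glucocorticoids induce, was at 31.7, 22.4 and 51.4 FPKM in MI+CIH, against 4.31, 8.10 and 4.64 FPKM in sham (2.5, adjusted p = 0.00236). Tsc22d3, another gene they induce, was at 37.5, 43.8 and 58.7 FPKM in MI+CIH, against 22.5, 22.3 and 14.9 FPKM in sham (1.21, adjusted p = 0.00629). Both genes stood above sham in every MI+CIH library. Cell cycle genes rose at low levels in 16 of 32 tested members, with 1 fallen (median 0.72). Ccna2, the cyclin of DNA synthesis, was at 2.33, 1.8 and 3.93 FPKM in MI+CIH, against 0.332, 0.425 and 0.484 FPKM in sham (1.75, adjusted p = 0.00258), and the proliferation marker Mki67 was at 10.9, 4.27 and 13.1 FPKM in MI+CIH, against 1.55, 1.70 and 2.04 FPKM in sham (2.01, adjusted p = 0.00595). Risen members without MI+CIH 2 and sham 2 numbered 8, 12 and 14 in the p53, glucocorticoid and cell cycle lists, and without MI+CIH 3 and sham 2 they numbered 1, 7 and 3. In the fit of the 6 libraries they numbered 1, 7 and 7. They numbered 2, 7 and 7 without sham 1, 4, 8 and 7 without sham 2, 6, 8 and 13 without sham 3, and 3, 10 and 9 without MI+CIH 3.

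Genes of the daily clock moved in opposite directions. In the clock, ARNTL and CLOCK switch on the Per and Cry repressors and the output genes Dbp, Tef and Hlf through E-boxes, and the outputs act in turn through D-boxes, while ROR and REV-ERB factors set the level of Arntl. The labels give no time of day of collection, so a shift of the clock and a difference in collection time cannot be told apart. The promoters below are a choice among the RefSeq sequences of build GRCm38.p6 in which motifs of this loop were found. All are from genes that fell or rose. Promoters of genes that missed the threshold, 4 of which held an E-box, are not shown. Each runs from 250 bases before to 50 after the start, 5′ to 3′ on the gene's strand, with the motif in capitals. The E-box CACGTG is shown in Tef (chr15:81802423-81802722, plus strand), Cry1 (chr10:85185005-85185304, minus strand) and Bhlhe41 (chr6:145865371-145865670, minus strand). The D-box TTATGTAA is shown in Per3 (chr4:151044616-151044915, minus strand). The ROR element AGGTCA is shown in a start of Arntl (chr7:113207261-113207560, plus strand).
Tef: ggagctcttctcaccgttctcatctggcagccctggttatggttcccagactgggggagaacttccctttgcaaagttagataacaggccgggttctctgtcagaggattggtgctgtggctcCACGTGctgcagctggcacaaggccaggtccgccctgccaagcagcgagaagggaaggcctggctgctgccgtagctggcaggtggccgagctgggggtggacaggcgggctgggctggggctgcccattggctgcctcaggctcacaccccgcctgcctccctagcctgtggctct
Cry1: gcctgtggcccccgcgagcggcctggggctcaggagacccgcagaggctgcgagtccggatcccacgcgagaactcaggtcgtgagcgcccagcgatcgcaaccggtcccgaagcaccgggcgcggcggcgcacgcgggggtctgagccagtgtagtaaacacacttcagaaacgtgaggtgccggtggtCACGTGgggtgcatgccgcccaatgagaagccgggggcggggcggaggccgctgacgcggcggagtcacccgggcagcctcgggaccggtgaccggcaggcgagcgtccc
Bhlhe41: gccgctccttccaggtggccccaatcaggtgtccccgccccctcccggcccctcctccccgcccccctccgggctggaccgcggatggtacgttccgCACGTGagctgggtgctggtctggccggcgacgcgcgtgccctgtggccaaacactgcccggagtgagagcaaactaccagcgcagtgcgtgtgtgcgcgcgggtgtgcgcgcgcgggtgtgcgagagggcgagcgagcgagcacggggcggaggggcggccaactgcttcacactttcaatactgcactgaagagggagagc
Per3: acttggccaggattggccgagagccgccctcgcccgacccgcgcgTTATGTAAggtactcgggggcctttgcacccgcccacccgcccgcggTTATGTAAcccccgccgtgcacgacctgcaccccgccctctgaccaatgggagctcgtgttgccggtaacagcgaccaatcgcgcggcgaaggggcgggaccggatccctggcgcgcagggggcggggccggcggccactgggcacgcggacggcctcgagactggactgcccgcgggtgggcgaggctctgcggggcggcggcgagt
Arntl: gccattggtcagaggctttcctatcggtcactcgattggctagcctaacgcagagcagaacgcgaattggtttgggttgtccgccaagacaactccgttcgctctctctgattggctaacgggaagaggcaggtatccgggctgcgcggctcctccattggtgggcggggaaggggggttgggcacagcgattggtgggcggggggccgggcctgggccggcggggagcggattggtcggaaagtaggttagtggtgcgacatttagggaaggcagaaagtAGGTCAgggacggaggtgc

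The E-box begins 127 bases before the start in Tef, 60 before it in Cry1 and 153 before it in Bhlhe41, the D-boxes of Per3 begin 205 and 158 bases before it, and the ROR element of Arntl begins at base 32 after it. Searched on both strands, the E-box was in 7.17% of the 32544 promoter sequences of the table, the D-box in 0.931% and the ROR element in 16.2%. These shares are per promoter, while the counts here are per gene, over all its promoters in the table (1 to 3). Of the 9 clock genes with a promoter that fell, 3 held an E-box, 1 a D-box and 1 a ROR element. Of the 5 that rose, none held an E-box or D-box and 3 held a ROR element. Of the 6 that missed the threshold, 4 held an E-box, 1 a D-box and 1 a ROR element. A match describes the letters only.

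Arntl, the driver of the loop, was at 5.21, 5.17 and 5.54 FPKM in MI+CIH, against 0.644, 0.349 and 0.64 FPKM in sham (2.49 ± 0.38, adjusted p = 0.00434). Its level was almost the same in the 3 MI+CIH libraries and far above sham. The outputs lay on the other side. Hlf was at 2.22, 3.32 and 2.74 FPKM in MI+CIH, against 11.7, 15 and 10.3 FPKM in sham (-1.97 ± 0.21, adjusted p = 0.00147). Tef was at 8.60, 12.8 and 16.1 FPKM in MI+CIH, against 31.8, 34.8 and 35.4 FPKM in sham (-1.45, adjusted p = 0.00783). Usp2, a rhythmic deubiquitinase, fell to 9.01, 13.4 and 11.5 FPKM in MI+CIH, against 30.8, 32.3 and 28.5 FPKM in sham (-1.41, adjusted p = 0.0075). None of these genes overlapped, which for Hlf was a condition of its choice. Each kept its call when any 1 library was left out.

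The clock lists held 7 activators and regulators, of which 4 rose (Arntl, Npas2, Nfil3 and Clock) and 1 fell (Bhlhe41), although Nfil3 and Bhlhe41 are themselves known as repressors. Of 18 tested repressors, outputs and other rhythmic genes 8 fell and 1, Tsc22d3, rose (median -0.77). Dbp, named after its values were seen as were the next genes, was at 12.5, 17.8 and 12.8 FPKM in MI+CIH, against 60.5, 62.5 and 90.7 FPKM in sham (-2.27, adjusted p = 0.0277), and Per3 was at 2.05, 2.17 and 4.30 FPKM in MI+CIH, against 9.93, 10.7 and 10.7 FPKM in sham (-1.77, adjusted p = 0.024). These groups did not overlap either. The repressors Cry1 (-0.91, adjusted p = 0.0456) and Bhlhe41 (-1.05, adjusted p = 0.0454) passed narrowly, and Per2, at 4.83, 3.82 and 10.3 FPKM in MI+CIH, against 19.4, 25.1 and 11.8 FPKM in sham, missed the threshold (-1.55, adjusted p = 0.103). Of the repressor and output list 3 genes fell without sham 1, 3 without sham 2, 4 without sham 3, 3 without MI+CIH 1, 4 without MI+CIH 2, 3 without MI+CIH 2 and sham 2 and 3 without MI+CIH 3 and sham 2. Of the activators 1 rose without sham 1, sham 2 or MI+CIH 3, 2 without sham 3, 1 without MI+CIH 2 and sham 2 and 1 without MI+CIH 3 and sham 2. Dbp, Per3, Cry1, Bhlhe41, Npas2, Nfil3 and Clock each lost the call in at least 1 of those fits, with adjusted p up to 0.314, 0.284, 0.178, 0.505, 0.312, 0.425 and 0.159 over all alternatives.

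The cardiokine of the study's title is read here as C1qtnf9, which encodes CTRP9, a secreted relative of adiponectin. It was at 36.6, 48.5 and 29.9 FPKM in MI+CIH, against 52.6, 44.4 and 45.9 FPKM in sham (-0.33 ± 0.22, adjusted p = 0.311), and the groups overlapped. The adiponectin receptors Adipor1 (-0.33, adjusted p = 0.25) and Cdh13 (-0.34, adjusted p = 0.128) missed the threshold. Of 13 tested genes of the adiponectin and CTRP list 7 rose and none fell. C1qtnf6, a family member of injured and fibrotic tissue, was at 9.04, 4.79 and 11.0 FPKM in MI+CIH, against 1.90, 2.05 and 2.83 FPKM in sham (1.61, adjusted p = 0.00577). Adipoq, adiponectin, was at 41.2, 70.1 and 44.5 FPKM in MI+CIH, against 2.33, 17.5 and 2.17 FPKM in sham (3.31, adjusted p = 0.0113), and it was highest in the library of each group that was richest in airway RNA. The adipocyte markers summed to 1420, 2348 and 1129 FPKM in MI+CIH, against 519, 1076 and 507 FPKM in sham, with 8 of 22 tested members risen and a median of 0.96. With the airway covariate none passed, and the median was 0.00. Without MI+CIH 2 and sham 2, 11 rose and 1 fell (median 0.83). In MI the adipocyte sums were 905 to 1600 FPKM, where airway sums were at most 72 FPKM. Whether airway tissue has a part in the adipocyte values was not tested. Pck1, an enzyme of glycerol synthesis in fat, was at 44.3, 86.4 and 42.8 FPKM in MI+CIH, against 1.19, 7.98 and 0.884 FPKM in sham (4.35, adjusted p = 0.00515). In the adiponectin list 3 rose without sham 1, 4 without sham 2, 4 without MI+CIH 3, 2 without MI+CIH 2 and sham 2 and 2 without MI+CIH 3 and sham 2. In the adipocyte list 3 rose without sham 1, 12 without sham 2, 3 without sham 3, 5 without MI+CIH 1, 4 without MI+CIH 2, 12 without MI+CIH 3 and sham 2 and 3 in the fit of the 6 libraries.

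Red cell genes fell in 10 of 13 tested members with none risen (median -2.05). Their sums were 188, 327 and 112 FPKM in MI+CIH, against 923, 917 and 398 FPKM in sham. Alas2, the red cell enzyme that starts haem synthesis, was at 7.89, 15.7 and 3.37 FPKM in MI+CIH, against 70.8, 85.6 and 27.0 FPKM in sham (-2.78, adjusted p = 0.00858). The mitochondrial iron importer Slc25a37 was at 5.74, 5.83 and 4.82 FPKM in MI+CIH, against 18.3, 27.5 and 11.7 FPKM in sham (-1.64, adjusted p = 0.00357). Sham 3 was the lowest sham library for these genes and MI+CIH 3 the lowest of all 6. In the list 4 fell without sham 1 or sham 2, 6 without MI+CIH 3, 9 without MI+CIH 2 and sham 2, none without MI+CIH 3 and sham 2 and 3 in the fit of the 6 libraries. Airway and cilia markers rose in 14 of 17 tested members (7 without sham 1, sham 3 or MI+CIH 3, 9 without MI+CIH 2, and 3 in the fit of the 6 libraries), and the cilia gene Rsph1 was at 1.52, 4.36 and 2.88 FPKM in MI+CIH, against 0.291, 0.761 and 0.51 FPKM in sham (1.68, adjusted p = 0.00741). Skeletal muscle markers summed to 1130, 898 and 430 FPKM in MI+CIH, against 489, 467 and 671 FPKM in sham, and the sums overlapped. Of 26 tested endothelial markers 2 rose and 2 fell, with a median of 0.07, which was -0.07 under median-of-ratios scaling. These counts are close to the shares of all tested genes, 11.3% risen and 5.51% fallen. Nothing is read from them about the list.

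**Figure D5:**
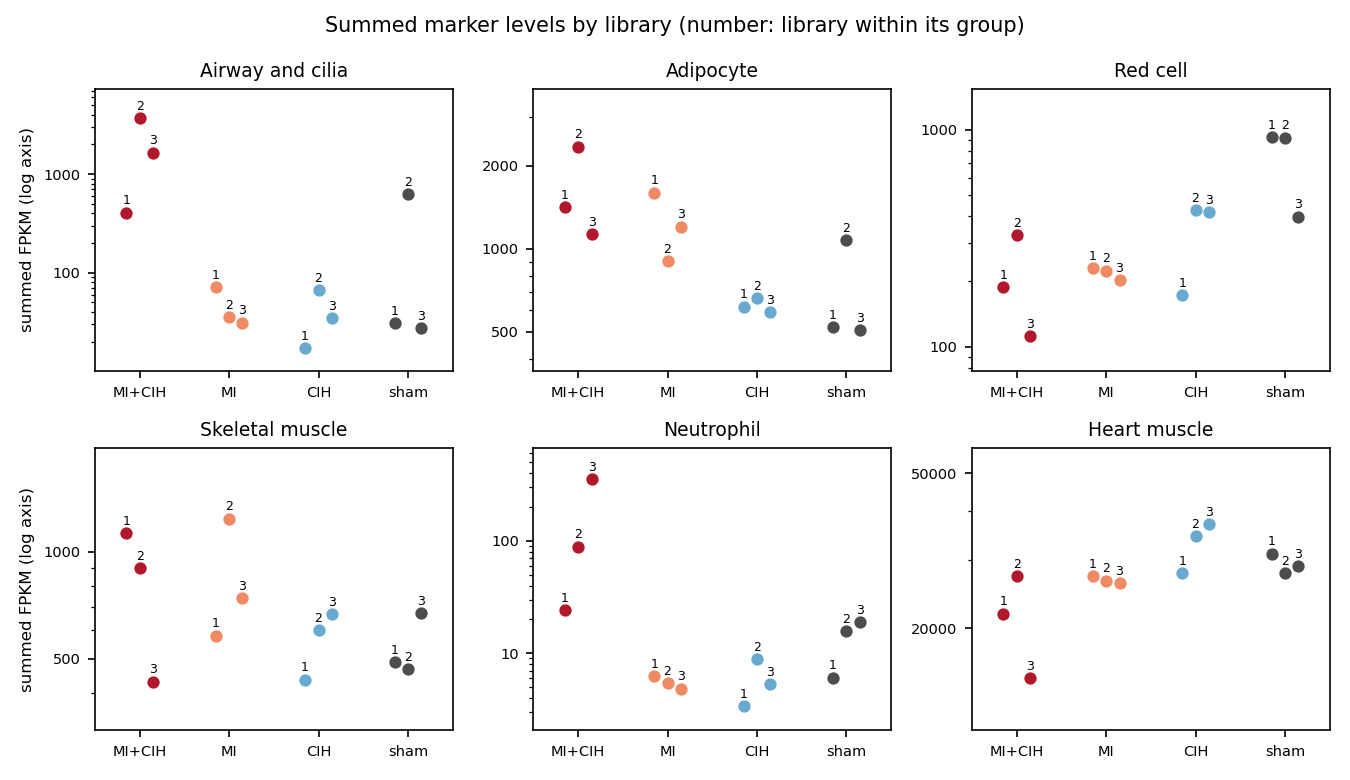
Points give the summed FPKM of each marker list in each library on a log axis, with the library number above each point, for MI+CIH, MI, CIH and sham from left to right. Airway sums are 406 to 3712 FPKM in MI+CIH and reach 622 FPKM in sham 2, red cell sums are lowest in MI+CIH 3 (112 FPKM), and heart muscle sums are lowest in MI+CIH 3 (14871 FPKM).

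The strongest single genes outside these groups were chosen by their p. Myof, a membrane repair protein, was at 15.6, 14.0 and 22.6 FPKM in MI+CIH, against 4.37, 4.94 and 6.46 FPKM in sham (1.62, adjusted p = 0.00147). Sh3pxd2b, a scaffold of invasive cell protrusions, was at 11.0, 7.61 and 14.5 FPKM in MI+CIH, against 2.62, 2.46 and 2.95 FPKM in sham (1.82, adjusted p = 0.00147). Both kept their calls in every alternative. The others of the 12 that rose were Thbs3 (1.15), Fndc1 (1.26) and Sept5 (1.56), with Eln, Cdkn1a, Mfap5, Col3a1, Tnc, Col16a1 and Col14a1 described above. Among those that fell Cpeb3, a regulator of mRNA translation, was at 5.69, 5.06 and 5.22 FPKM in MI+CIH, against 12.9, 14.7 and 13.8 FPKM in sham (-1.29, adjusted p = 0.00147). Mid1ip1, a promoter of fatty acid synthesis, was at 8.92, 11.7 and 15.9 FPKM in MI+CIH, against 50.2, 55.8 and 40.4 FPKM in sham (-1.99, adjusted p = 0.00147). Crhr2, the receptor for urocortins, was at 1.14, 1.68 and 1.05 FPKM in MI+CIH, against 4.44, 5.56 and 3.62 FPKM in sham (-1.49, adjusted p = 0.00147). Groups that do not overlap were a condition of the choice of these genes. The remaining ones were Wnk2 (-1.44), Smco1 (-1.62), Kcnn2 (-1.42), Actr3b (-1.41), Ano4 (-1.28) and Gmpr (-1.06), with Adamts7, Scn4b and Hlf.

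The comparisons of MI with sham, of CIH with sham and of MI+CIH with sham share the sham libraries, so their values are only set side by side. By the same threshold 304 genes passed in MI over sham (1.96%), 212 of them higher (1.37%) and 92 lower (0.593%), and 1 gene passed in CIH over sham (0.00645%). Of the 49 scar matrix genes 44 rose in MI+CIH over sham and 29 in MI over sham, with medians of 1.83, 1.38 and 0.19 in MI+CIH, MI and CIH over sham. For the macrophage list the medians were 1.22, 0.64 and 0.04, and 22 genes rose in MI+CIH over sham and 1 in MI over sham. Such counts are to be read beside the shares of all tested genes that rose, 11.3% and 1.37%. For the ion channels the medians were -0.79, -0.34 and -0.17, and for the citric acid cycle -0.61, -0.10 and 0.17. Medians of complex I were -0.51, 0.06 and 0.46. In other lists MI alone had a median as large or nearly so: -0.77, -0.98 and -0.50 for the clock repressors and outputs, 0.68, 0.86 and 0.25 for the clock activators, 0.96, 1.04 and -0.65 for the adipocyte markers and -2.05, -1.92 and -1.24 for the red cell genes. Col3a1 changed by 3.62 in MI+CIH, 2.62 in MI and 0.90 in CIH over sham.

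Whether the combined injury differed from MI alone was read from MI+CIH over MI, in which 51 genes passed (0.329%). None of the 49 scar matrix genes, 27 ion channels, 16 calcium genes or 26 citric acid cycle genes was among them. Of the 29 tested macrophage markers 1 was, and it was higher in MI+CIH. Of the airway markers 6 of 17 passed, Gpnmb changed by 2.56 (adjusted p = 0.0495), Marco by 2.86 (adjusted p = 0.0495) and Col2a1 by 3.01 (adjusted p = 0.0495). Of the 18 clock repressors and outputs 1 passed, Nr1d1 (1.59, adjusted p = 0.0495), named after its values were seen. Its means were 33.0 FPKM in MI+CIH, 10.7 FPKM in MI and 31.3 FPKM in sham. Gmpr, a purine enzyme, differed by -0.91 (adjusted p = 0.0491), with 11.6, 15.8 and 12.0 FPKM in MI+CIH. Perm1 came close at -1.16 (adjusted p = 0.0503), as did Smco1 at -0.99 (adjusted p = 0.0503). A p that misses the threshold does not show that the groups act alike. The test of the interaction, the MI effect with CIH less the MI effect without it, passed for 12 genes (0.0774%).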

How the data were processed

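The authors deposited 1 table of FPKM for 26781 genes in 12 heart libraries, 3 in each of 4 groups. Per the submitters' processing notes, HISAT, featureCounts 1.5.0-p3, DESeq 1.8.3 and build mm10 were used, with no roles given. Per the labels' protocols, 3 ug of total RNA entered a small RNA library kit, while the series text speaks of mRNA profiles. Strandedness is not given in the sources used here, so overlapping and antisense genes cannot be told apart. Read totals were recovered from the FPKM steps with exon lengths of the GENCODE annotation. With these lengths 22360 of 25429 genes gave whole reads within 0.1 in all libraries (87.9%). By these totals 1 read on 1 kilobase was worth at most 0.03837 FPKM.

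The log2 of the deposited FPKM + 0.5 was fitted for all 12 libraries together with limma 3.58.1 in R 4.3.3 (robust trend, statmod 1.5.0, 8 residual degrees of freedom). Tables and figures were made with Python 3.11.15, pandas 2.3.3, numpy 2.4.6 and matplotlib 3.10.9. The fit was tested on simulated data. Named genes were the C1qtnf9 and adiponectin genes, the 12 called genes in each direction with the smallest p (2-fold or more, mean 1 FPKM or more over the 6 libraries, groups apart, proper symbols), up to 4 called members of each of 54 gene lists (up to 2 of the most abundant where none was called), which held 1202 genes (1186 in the table, 1099 tested), and up to 3 of the most abundant markers of each other tissue. Genes outside this rule are said to be named after their values were seen. A result that the rule would name is not reported here. The members and lists were chosen with earlier results of these data known. Alternatives were the filter, the pseudocount, the scaling, the 6 libraries alone, the replicate block, the variance prior and leaving out libraries. The airway covariate, and leaving out sham 2 with MI+CIH 2, were chosen after seeing the data.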

Additional observations from a re-analysis of the deposited data

Results flagged for a closer look

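The effect of MI differed between hearts with and without CIH, by limma's interaction term with Benjamini-Hochberg adjustment, in 12 genes, of which Ddit3 and Pfkfb3 are described above. For Ddit3 the MI effect with CIH exceeded that without it by 1.45 ± 0.18 SE on the log2 scale (adjusted p = 0.0396). Its means were 8.85 ± 1.07 FPKM in MI+CIH, 7.54 ± 0.656 FPKM in MI, 5.50 ± 0.741 FPKM in CIH and 13.5 ± 0.364 FPKM in sham (SD, n = 3 each). All 3 injured groups lay below sham, and CIH was the lowest.

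For Pfkfb3 the difference of the MI effects was 1.96 ± 0.30 SE (adjusted p = 0.0495). Its means were 14.8 ± 2.91 FPKM in MI+CIH, 6.13 ± 0.646 FPKM in MI, 3.13 ± 0.396 FPKM in CIH and 5.85 ± 2.09 FPKM in sham (SD, n = 3 each). MI+CIH stood above the other 3 groups, and CIH was the lowest.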

How the results depend on the processing

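Under the filters on low values, the pseudocounts of 0.1 and 1 and the non-robust variance prior the counts of genes that rose (1526 to 1772) and fell (683 to 871) stayed within 1.5 times those reported. Median-of-ratios scaling gave 1310 genes that rose and 1476 that fell, and the fit of the 6 libraries alone 805 and 368. Leaving out 1 library at a time gave 606 to 1840 genes that rose and 370 to 1195 that fell, and leaving out sham 2 with MI+CIH 3 gave 390 and 173. With the airway covariate, added after seeing the data, 31 rose and 13 fell. The calls shared with the reported ones kept their direction in every alternative. The cause of these moves was not tested, though fits of fewer libraries rest on fewer degrees of freedom. Same-numbered libraries of the 2 groups showed no shared deviation (correlations of 0.026, -0.022 and -0.005). With so few libraries this cannot show whether the numbers pair them. With the replicate block 1538 genes rose and 740 fell. Among named genes S100a9, which missed the threshold, ranged from -0.43 to 2.76 as 1 library was left out, with the sign changed without MI+CIH 3. It was at -0.62 without sham 2 and MI+CIH 3. Scgb1a1 was at -0.32 with the airway covariate. That covariate is a sum that includes Scgb1a1 itself, so nothing is read from this value. With 26.06 to 33.42 M reads per library, genes under about 0.5 FPKM were not tested.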
